A study of Mus musculus with 40 samples.

Results

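The 10 genes described here encode the ligand-activated and orphan nuclear receptors that hepatocytes are best known for: Ppara, Ppard, Rxra, Nr1h3, Nr1h4, Nr1i2, Nr1i3, Hnf4a, Nr5a2 and Nr0b2. They were taken by gene symbol and not by a threshold on any measured value, although with earlier results of these data known, and are 10 of the 21448 mouse genes with a probe in the count table. Together they had 24 probes, all of which passed the filter on low counts. Each gene is described by its most counted probe, and its other probes are given as a check.

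The livers came from Crl:CD1(ICR) mice, an outbred stock without an engineered allele, that were given GenX by oral gavage for 90 days. GenX is the ammonium salt of a short perfluorinated ether acid used as a processing aid in fluoropolymer manufacture. Males and females received deionized water alone (0 mg/kg bw/d) or GenX at 5, 0.5 or 0.1 mg/kg bw/d, with 5 mice in each of the 8 groups, and the study asked how the liver transcriptome responds to dose in each sex. RNA was taken from formalin-fixed, paraffin-embedded liver sections and measured by TempO-Seq, in which pairs of oligonucleotides that lie side by side on a target RNA are ligated and counted. Each value is 1 mouse, and no treated mouse received another agent. Values are normalized counts scaled to a common library size (CPM). A probe reports a short stretch of its RNA with its own efficiency, so levels were not compared between genes.

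Nuclear receptors are transcription factors whose activity is set in large part by small lipophilic ligands and by protein partners, so their own mRNA need not follow the mRNA of their targets. In the liver, Ppara and Ppard sense fatty acids and switch on their oxidation, Nr1h3 (LXRα) senses oxysterols, Nr1h4 (FXR) senses bile acids, and Nr1i2 (PXR) and Nr1i3 (CAR) sense foreign compounds. Most of these bind DNA as a pair with Rxra, whereas Hnf4a binds as a pair with itself and Nr5a2 (LRH-1) as a single molecule. Nr0b2 (SHP) has no DNA-binding domain and represses several of the others.

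Most of the 10 receptor mRNAs did not pass the test at any dose. The exceptions were Hnf4a, which fell at 5 mg/kg in both sexes, and Rxra, which fell slightly at 5 mg/kg in males. Ppara mRNA did not pass, while 35 of 40 genes listed as its targets rose in the same males. The promoters of the 2 receptors that fell are shown as the sequence around the annotated start sites of these genes. Each is a RefSeq window on GRCm38.p6 that runs from 250 bases before to 50 bases after an annotated start site, printed 5′ to 3′ on the strand of the gene, which is the plus strand for both. Capitals mark the nuclear receptor half-site AGGTCA on either strand, so that TGACCT is the same site on the other strand. For Hnf4a, which is known to be transcribed from an upstream and a downstream start, the windows are chr2:163506607-163506906 and chr2:163546905-163547204. For Rxra they are chr2:27676951-27677250 and chr2:27709042-27709341.
Hnf4a upstream: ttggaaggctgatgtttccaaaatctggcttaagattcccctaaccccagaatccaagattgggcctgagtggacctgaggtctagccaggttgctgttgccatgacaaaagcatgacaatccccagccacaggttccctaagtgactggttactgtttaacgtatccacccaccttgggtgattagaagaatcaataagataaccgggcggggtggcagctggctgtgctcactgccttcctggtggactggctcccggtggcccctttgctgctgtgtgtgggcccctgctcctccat
Hnf4a downstream: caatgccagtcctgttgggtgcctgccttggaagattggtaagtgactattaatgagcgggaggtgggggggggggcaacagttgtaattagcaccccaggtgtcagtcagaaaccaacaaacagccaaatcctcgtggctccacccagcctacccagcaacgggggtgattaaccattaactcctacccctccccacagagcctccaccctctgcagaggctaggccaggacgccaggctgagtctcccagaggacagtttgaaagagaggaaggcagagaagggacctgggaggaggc
Rxra upstream: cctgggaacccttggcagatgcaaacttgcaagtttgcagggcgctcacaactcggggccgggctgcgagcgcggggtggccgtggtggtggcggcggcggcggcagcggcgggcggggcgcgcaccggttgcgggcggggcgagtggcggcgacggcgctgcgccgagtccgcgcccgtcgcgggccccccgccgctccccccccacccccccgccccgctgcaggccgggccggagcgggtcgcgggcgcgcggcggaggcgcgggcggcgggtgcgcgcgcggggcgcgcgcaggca
Rxra downstream: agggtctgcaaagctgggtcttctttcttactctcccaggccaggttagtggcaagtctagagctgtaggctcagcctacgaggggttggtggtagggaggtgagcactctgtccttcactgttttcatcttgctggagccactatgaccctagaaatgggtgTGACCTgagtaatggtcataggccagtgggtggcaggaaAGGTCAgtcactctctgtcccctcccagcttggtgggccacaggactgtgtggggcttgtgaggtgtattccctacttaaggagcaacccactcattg

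Neither Hnf4a window holds the half-site, and the downstream Rxra window holds 2, with first bases 87 and 48 bases before the start site. Over the 14 windows of all 10 receptors, 3 held AGGTCA, against 16.26% of 32851 mouse promoter windows of the same length. The other 2 were those of Nr1h4, at chr10:89506609-89506908, and of Nr5a2, at chr1:136960399-136960698, both on the minus strand, with the site 214 and 64 bases before the start. The direct repeats AGGTCANAGGTCA (DR1) and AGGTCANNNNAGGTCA (DR4), bound by receptor pairs, were in none of the 14 windows and in 0.04% and 0.02% of all windows. The E-box CACGTG was in a window of Nr0b2 and one of Nr1i3 and in 7.15% of all windows, and the D-box TTATGTAA was in none of the 14 and in 0.94% of all windows. These matches describe the letters of the windows and do not show binding.

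Of 40 libraries, 39 were used. The library of female 355 (0.5 mg/kg) held 6711981 reads, under the limit of 2 SD below the mean, and was left out, which leaves 4 mice in that group. The others held 10341341 to 15562253 reads. The low counts of a library peaked at 21 to 45 reads, which was taken here as the reads from 1 ligated molecule. The sources used here do not describe this, and some counts lie below the peak. On that estimate a library held about 284218 to 649658 molecules, with 284218 to 367656 in control males and 489778 to 649658 in males at 5 mg/kg, ranges that do not overlap. Reads of the Y-linked genes Ddx3y or Uty were present in 20 of 20 males and 0 of 19 females.

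The tissue was checked against marker genes. The summed level of 8 hepatocyte genes was 8675 CPM or more in every library, while 5 lymphocyte markers summed to at most 29.2 CPM. In males at 5 mg/kg, the hepatocyte sum was 8675 to 10517 CPM, below the 12236 to 14610 CPM of control males, and 4 of its 8 genes fell. The stellate cell sum (7 genes) was 157 to 196 against 67.3 to 133 CPM with 2 genes higher, and the sum of 4 proliferation genes was 23.4 to 70.7 against 0 to 2.71 CPM with 1 gene higher. The other marker sums of these groups overlapped, at 21.2 to 42.03 against 23.4 to 64.4 CPM for 7 macrophage genes, 105 to 194 against 159 to 187 CPM for 7 endothelial genes, of which 1 fell, and 40.05 to 95.2 against 31.9 to 60.7 CPM for 5 bile duct genes. In females the hepatocyte sum was 11027 to 16450 CPM at 5 mg/kg and 13657 to 16779 CPM in controls, with 2 genes lower, and no gene of the other marker lists passed. In bulk liver, fewer hepatocytes and less RNA of these marker genes per hepatocyte cannot be told apart, and the cause of the lower sum was not tested.

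Ppara, the fatty acid receptor that GenX and related compounds are known to activate, lies at chr15:85734983-85802819 on the plus strand of GRCm38. Its level was 154, 158, 213, 148 and 102 CPM in the 5 control males and 117, 75.3, 86.8, 126 and 152 CPM in the 5 males at 5 mg/kg. In females it was 62.2, 92.8, 173, 76.9 and 178 CPM in controls and 92.8, 80.7, 245, 194 and 128 CPM at 5 mg/kg. The groups overlapped in both sexes, with the treated males mostly low and the treated females spread across the whole range. The log2 difference was -0.48 ± 0.28 (SE, 95% interval -1.05 to 0.10, adjusted p = 0.353, edgeR quasi-likelihood test) in males and 0.35 ± 0.28 (-0.22 to 0.92, adjusted p = 0.786) in females. Its other probes did not share 1 direction in males, at 0.78 ± 0.55 and -1.40 ± 1.13, and were at 0.20 ± 0.55 and 0.81 ± 1.12 in females, none of which passed. The difference between the sexes in this change was 0.82 with an interval of 0.02 to 1.63, and it did not pass (adjusted p = 0.386, edgeR).

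The targets of Ppara moved where its own mRNA did not pass. Of 40 listed targets, 35 rose in males given 5 mg/kg and 29 in the females at that dose, with none lower, and medians of 2.38 and 1.85 on the log2 scale. Over all genes, 5.59% rose in males and 2.09% in females, with medians of 0.11 and -0.01. At 0.5 mg/kg, 24 rose in males (1.88% of all genes) and 10 in females (0.177%), and at 0.1 mg/kg none passed in either sex. Pdk4, the kinase that turns pyruvate away from oxidation, had no read in any control male and 40.8 CPM ± 26.8 (SD, n = 5) at 5 mg/kg. Cidec, a lipid droplet protein, was likewise at 0 in control males and was at 7.08 CPM ± 3.60 (SD) at 5 mg/kg. No fold is given where a group had no read, because 1 molecule was taken as 21 to 45 reads. In females, Cyp4a14, a fatty acid ω-hydroxylase, rose from 28 to 961 CPM (log2 5.10 ± 0.68) and Acot2, a mitochondrial acyl-CoA thioesterase, from 2.60 to 96.7 CPM (5.20 ± 0.99). Cyp4a14 and Acot2 also rose in males at 5 mg/kg (6.66 ± 0.74 and 6.87 ± 1.07). The 5 listed targets that did not pass in males were Cpt1a, Acot4, Vnn1, Angptl4 and Fgf21.

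Ppard, the more broadly expressed relative of Ppara, lies at chr17:28232700-28301474 on the plus strand. It was the receptor with the widest spread between mice among those with no mouse at 0, with a lowest, median and highest level of 2.01, 26.1 and 81.3 CPM over the 39 mice, a 40.5-fold range. Control males had 26.04, 33.1, 10.5, 6.11 and 39.02 CPM and males at 5 mg/kg had 34.9, 13.1, 21.1, 16.6 and 15.3 CPM. Control females had 43.4, 26.1, 36.7, 28.1 and 19.2 CPM and females at 5 mg/kg had 69.8, 63.2, 3.35, 12.4 and 15.5 CPM. The groups overlapped throughout, and both the highest and the lowest of these 20 values were in treated females. The log2 difference at 5 mg/kg was -0.18 (95% interval -1.40 to 1.03) in males and 0.10 (-1.11 to 1.31) in females, so that even a change of 2-fold in either direction lies within these intervals. The second probe was at -1.24 ± 0.65 in males and -0.31 ± 0.64 in females, and neither passed.

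The spread of Ppard was shared by its second probe. Over the 39 mice, with group means removed, the 2 probes had a Pearson r of 0.757 (adjusted p = 0.00105) and a Spearman rho of 0.629 (adjusted p = 0.00476, permutation tests over 14 probe pairs), and r was 0.691 without the 2 mice farthest from the median. This test was chosen after the data were seen. Dbp, a transcription factor of the circadian clock output, was set beside Ppard as a description with no test. It was chosen after its values were seen and had the lowest r with Ppard of 3898 genes compared (-0.70, sex means removed). The mice were split at a gap in its values. Lower Ppard in the mice with high Dbp therefore follows in part from this choice. In 30 mice Dbp was at most 9.73 CPM, and their lowest, median and highest Ppard levels were 6.11, 33.6 and 81.3 CPM. In the other 9 mice, Dbp was 20.7 to 211 CPM and these Ppard levels were 2.01, 6.58 and 18.6 CPM. Within the 30 mice r was -0.38 and rho -0.41, and within the 9 mice r was 0.13 and rho 0.12. For the second Ppard probe, r was -0.50 and rho -0.43 within the 30 mice, and r was -0.62 and rho -0.63 within the 9. The mice with high Dbp numbered 0, 2, 3 and 1 in males at 0, 0.1, 0.5 and 5 mg/kg, and 0, 1, 0 and 2 in females, so the Ppard values of treated groups include more of them than those of the controls. The part of the time of sampling in these values was not tested.

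**Figure D1:**
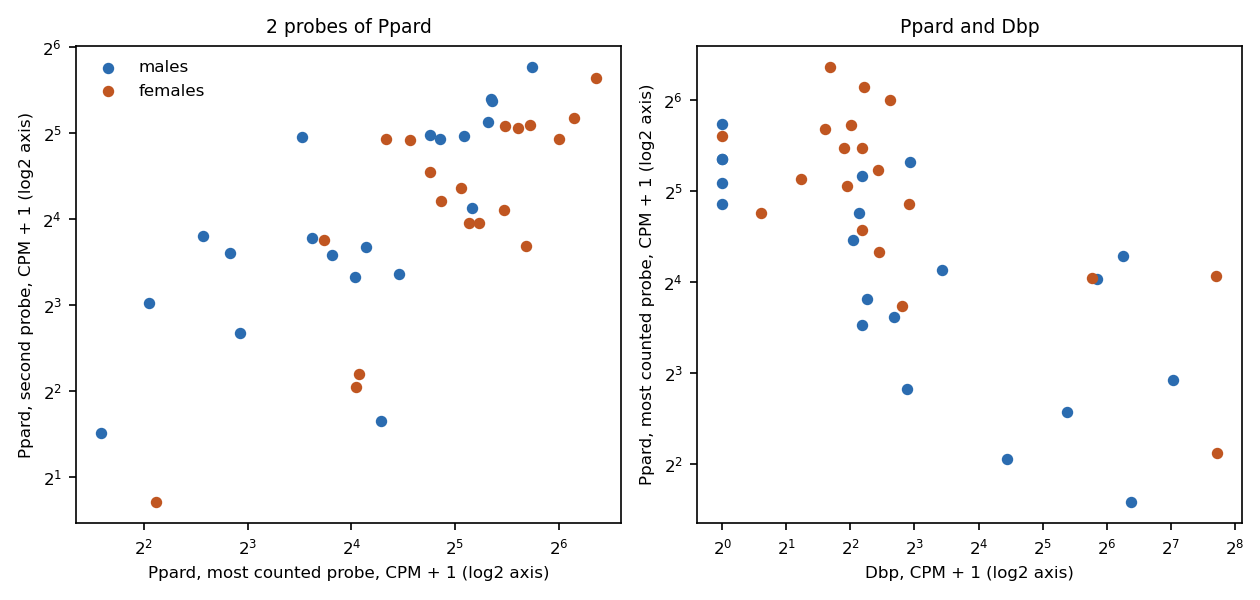
Ppard in each of the 39 mice, with CPM + 1 on log2 axes; blue points are males and orange points females. On the left the second Ppard probe is plotted against the most counted one (r = 0.757 with group means removed). On the right Ppard is plotted against Dbp, where the 9 mice with Dbp above 20 CPM all lie at or below 18.6 CPM of Ppard.

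Rxra, the partner with which several of the other receptors bind DNA, lies at chr2:27676440-27762957 on the plus strand. Its level was 732, 472, 642, 702 and 805 CPM in control males and 531, 469, 454, 616 and 567 CPM in males at 5 mg/kg. The other control males lay above every treated male, and 1 control, at 472 CPM, lay among the lowest treated ones. The fall from a mean of 671 to 528 CPM (log2 difference -0.35 ± 0.12, 95% interval -0.59 to -0.10) passed at an adjusted p of 0.0821 by edgeR. The second probe fell further, from 313 to 202 CPM (-0.63 ± 0.16, adjusted p = 0.00499), and its groups did not overlap. In females the level was 603, 837, 786, 770 and 823 CPM in controls and 592, 721, 785, 563 and 688 CPM at 5 mg/kg, which overlap. The difference was -0.19 ± 0.12 (adjusted p = 0.537), and for the second probe it was -0.43 ± 0.15 (adjusted p = 0.172), neither of which passed. The male call of the most counted probe was lost in 6 of 39 fits that each left out 1 mouse (control males 101, 104 and 105, and males 401, 402 and 403 at 5 mg/kg), with adjusted p up to 0.235.

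Nr1i3, the receptor for which phenobarbital-type inducers are known, lies at chr1:171213970-171220701 on the plus strand and overlaps Tomm40l on the other strand. Its level was 215, 150, 73.4, 116 and 110 CPM in control males, 219, 219, 175, 187 and 220 CPM at 0.5 mg/kg, and 146, 90.9, 97.4, 145 and 123 CPM at 5 mg/kg. All but 1 of the control males lay below every male at 0.5 mg/kg, while the 5 mg/kg males lay within the range of the controls. The log2 difference was 0.62 ± 0.24 at 0.5 mg/kg (adjusted p = 0.243) and -0.14 ± 0.24 at 5 mg/kg (adjusted p = 0.989). At 0.5 mg/kg a second probe with a like level rose from 108 to 177 CPM (0.72 ± 0.22, adjusted p = 0.0972) and did not overlap the controls. In females the level was 88.9, 206, 204, 239 and 179 CPM in controls and 178, 104, 257, 193 and 205 CPM at 5 mg/kg, which overlap, and the difference was 0.03 ± 0.24.

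The 4 probes of Nr1i3 did not move alike. The least counted of them fell in males from 34.4 to 11.4 CPM at 5 mg/kg (-1.59 ± 0.36, adjusted p = 0.00202) with no overlap, and with a trend of -0.53 per dose step (adjusted p = 0.00089). In females the same probe was at 40.1 CPM in controls and 18.1, 19.6 and 26.4 CPM at 0.1, 0.5 and 5 mg/kg, and none of these differences passed (adjusted p of 0.474, 0.485 and 0.452 by edgeR). The log2 ratio of the most counted probe to this one was 1.89 ± 0.40 (SD, n = 5) in control males and 3.43 ± 0.77 in males at 5 mg/kg, a difference of 1.54 with no overlap (exact two-sided permutation test, p = 0.00794, which no split of 5 against 5 can go below). After adjustment over the 12 ratio comparisons, which were chosen after the data were seen, p was 0.0952. Which transcripts each probe reads was not analysed here. Across mice with group means removed, the most counted probe had an r of 0.71 with the second (adjusted p = 0.00028, permutation test), 0.586 with the third (adjusted p = 0.00163) and 0.268 with the least counted (adjusted p = 0.137).

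Of 16 listed targets of Nr1i3, 6 rose and 1 fell in males at 5 mg/kg (median 0.49), and 0 rose and 2 fell in females (median -0.11). Over all genes 5.59% rose and 3.75% fell in these males, and 2.09% rose and 2% fell in these females. Cyp2b10 and Cyp2c55, which the study names as direct targets of CAR, did not pass in males (-0.82 ± 0.52 and 1.12 ± 2.00). The female-type cytochromes Cyp2b13 and Cyp2b9 rose in males. Cyp2b13 had no read in any control male and was at 5.68 CPM ± 4.02 (SD) at 5 mg/kg, and Cyp2b9 rose from 3.16 to 69.3 CPM (4.46 ± 0.83). Cyp2c29, another drug-metabolising cytochrome, fell in both sexes, from 2225 to 314 CPM in males (-2.82 ± 0.18) and from 1133 to 577 CPM in females (-0.97 ± 0.17). In females the sulfotransferase gene Sult1d1 also fell (-0.95 ± 0.19).

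Nr1i2, the receptor for a wide range of drugs and steroids, lies at chr16:38248323-38294824 on the minus strand. Its level was 49.5, 62.6, 78.0, 58.7 and 50.9 CPM in control males and 95.7, 71.7, 71.4, 111 and 73.2 CPM in males at 5 mg/kg. Every treated male lay above 4 of the 5 controls, and the groups overlapped through the control at 78.0 CPM. The log2 difference was 0.50 ± 0.20 (95% interval 0.09 to 0.90) and did not pass (adjusted p = 0.150, edgeR). In females the means were 75.8 and 82.5 CPM, a difference of 0.12 (-0.28 to 0.53). The second probe was at 0.30 ± 0.35 and 0.25 ± 0.34, and neither passed. Of its 14 listed targets, 2 rose and 1 fell in males and 1 rose and 3 fell in females, with medians of 0.03 and 0.14, beside 5.59% and 3.75% of all genes higher and lower in males and 2.09% and 2% in females. Aldh1a1, a retinal dehydrogenase, rose in both sexes (1.48 ± 0.30 and 1.02 ± 0.30). In males the efflux pump gene Abcb1b rose (0.72 ± 0.22) and the carboxylesterase gene Ces2a fell (-1.32 ± 0.23). The female cytochromes Cyp3a44 and Cyp3a41a fell in females, the first from 36.5 CPM to no read in any treated mouse, and the second from 3256 to 357 CPM (-3.19 ± 0.38).

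Nr1h4, the bile acid receptor, lies at chr10:89454234-89533585 on the minus strand and was the steadiest between control and treated males on the most counted probes. Its level was 230, 198, 186, 168 and 178 CPM in control males and 168, 179, 224, 189 and 197 CPM at 5 mg/kg, a difference of 0.00 with an interval of -0.34 to 0.34. In females it was 128, 120, 160, 140 and 159 CPM in controls and 202, 151, 210, 157 and 184 CPM at 5 mg/kg. Of the treated females, 3 lay above all controls, and the difference of 0.36 ± 0.17 did not pass (adjusted p = 0.258, edgeR). Control females lay below all control males (-0.44 ± 0.17), which did not pass either (adjusted p = 0.195). This was the only receptor whose 2 control groups did not overlap on the most counted probe, against 4.06% of all genes. The second Nr1h4 probe had means of 6.89 and 12.7 CPM in control males and males at 5 mg/kg, and 8.74 and 8.64 CPM in females. It passed in none of these comparisons, and its control means went the other way between the sexes. Across mice with group means removed, the 2 probes had an r of 0.066, so the statements above are those of 1 probe.

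Of 12 tested targets of Nr1h4, none rose at 5 mg/kg, and 6 fell in males (median -0.76) and 4 in females (median -0.40). Over all genes, 3.75% fell in males and 2% in females. The list includes genes of bile acid synthesis, which Nr0b2 represses when Nr1h4 is active. Its counts and medians therefore do not give the direction of Nr1h4 activity, which was not tested. Slc10a1, the uptake transporter for bile acids at the blood side of the hepatocyte, fell from 314 to 69.5 CPM in males (-2.17 ± 0.18, adjusted p = 2.93e-13) and from 290.4 to 165 CPM in females (-0.82 ± 0.17, adjusted p = 0.00171). Cyp7b1, an oxysterol hydroxylase of the alternative bile acid route, fell from 142 to 18.9 CPM in males (-2.91 ± 0.48). Cyp27a1, which begins that route, fell from 82.7 to 45.7 CPM in males (-0.86 ± 0.20) and from 77.8 to 42.7 CPM in females (-0.86 ± 0.20).

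Nr0b2, whose protein represses bile acid synthesis when Nr1h4 is active, and Nr1h3, the oxysterol receptor, were at the limit of what these libraries can count. Nr0b2, at chr4:133553376-133556536 on the plus strand, had a lowest, median and highest level of 0, 4.05 and 13.8 CPM over the 39 mice, with 6 mice at 0 and an estimated median of 1.65 molecules per library. Nr1h3, at chr2:91184061-91202834 on the minus strand and overlapping Gm13783 on the same strand, had 0, 3.79 and 14 CPM, with 4 mice at 0 and an estimated median of 1.31 molecules. The other probes of Nr1h3 were as low, with means of 4.62 and 4.48 CPM over the 39 mice, and neither passed at 5 mg/kg. The intervals at 5 mg/kg ran from -3.97 to 1.62 (Nr0b2) and from -2.75 to 2.00 (Nr1h3) in males and from -2.30 to 3.23 and -1.05 to 3.78 in females, so a change was not detectable at this depth. Of 15 listed targets of Nr1h3, none fell at 5 mg/kg, while 3 rose in males, beside 5.59% of all genes, and 1 rose in females, beside 2.09%, with medians of 0.19 and 0.52. Scd1, the stearoyl-CoA desaturase, rose from 1646 to 7767 CPM in males (2.24 ± 0.40) and from 1007 to 4465 CPM in females (2.15 ± 0.40), and the fatty acid synthase gene Fasn rose in males (1.44 ± 0.33).

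Hnf4a, the receptor that maintains the expression of many hepatocyte genes, had the lowest adjusted p among the 10 at 5 mg/kg in both sexes. It lies at chr2:163506808-163572910 on the plus strand, with the antisense gene Hnf4aos on the other strand and Gm25881 on the same strand. Its level was 227, 291, 408, 380 and 486 CPM in control males and 218, 232, 208, 184 and 188 CPM in males at 5 mg/kg. The 2 groups overlapped only through the lowest control, at 227 CPM, and the highest treated male, at 232 CPM. In females it was 300.2, 407, 316, 270 and 344 CPM in controls and 173, 226, 269, 227 and 212 CPM at 5 mg/kg, and these groups did not overlap, although their nearest mice differed by less than 1 CPM. The log2 difference was -0.80 ± 0.16 (95% interval -1.13 to -0.47, adjusted p = 0.000497) in males and -0.56 ± 0.16 (-0.90 to -0.23, adjusted p = 0.0439) in females by edgeR. The median gene moved by 0.11 in males, so the male change relative to it was -0.91, and that of Rxra was -0.46.

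The fall of Hnf4a was seen with its second probe in both sexes and passed in males. That probe went from 158 to 95 CPM in males (-0.73 ± 0.24, adjusted p = 0.0588) and from 127 to 87.8 CPM in females (-0.53 ± 0.24, adjusted p = 0.258 by edgeR). At 0.1 and 0.5 mg/kg the difference of the most counted probe was -0.02 and -0.22 in males and -0.30 and -0.07 in females, none of which passed. The trend over the 4 doses in males was -0.26 per dose step, with an adjusted p of 0.000313, and the trend in females was -0.15 and did not pass (adjusted p = 0.141). The female minus male difference in log2 change at 5 mg/kg was 0.24, a smaller fall in females, with an interval of -0.23 to 0.71 (adjusted p = 0.925). The call in males was kept in all 39 fits that left out 1 mouse, with log2 differences of -0.93 to -0.66. The call in females was lost without control female 152 (adjusted p = 0.181) and without female 451 at 5 mg/kg (adjusted p = 0.169). The hepatocyte marker sum and the number of molecules also differed between control males and males at 5 mg/kg, as given above, and their part in the result was not tested.

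**Figure D2:**
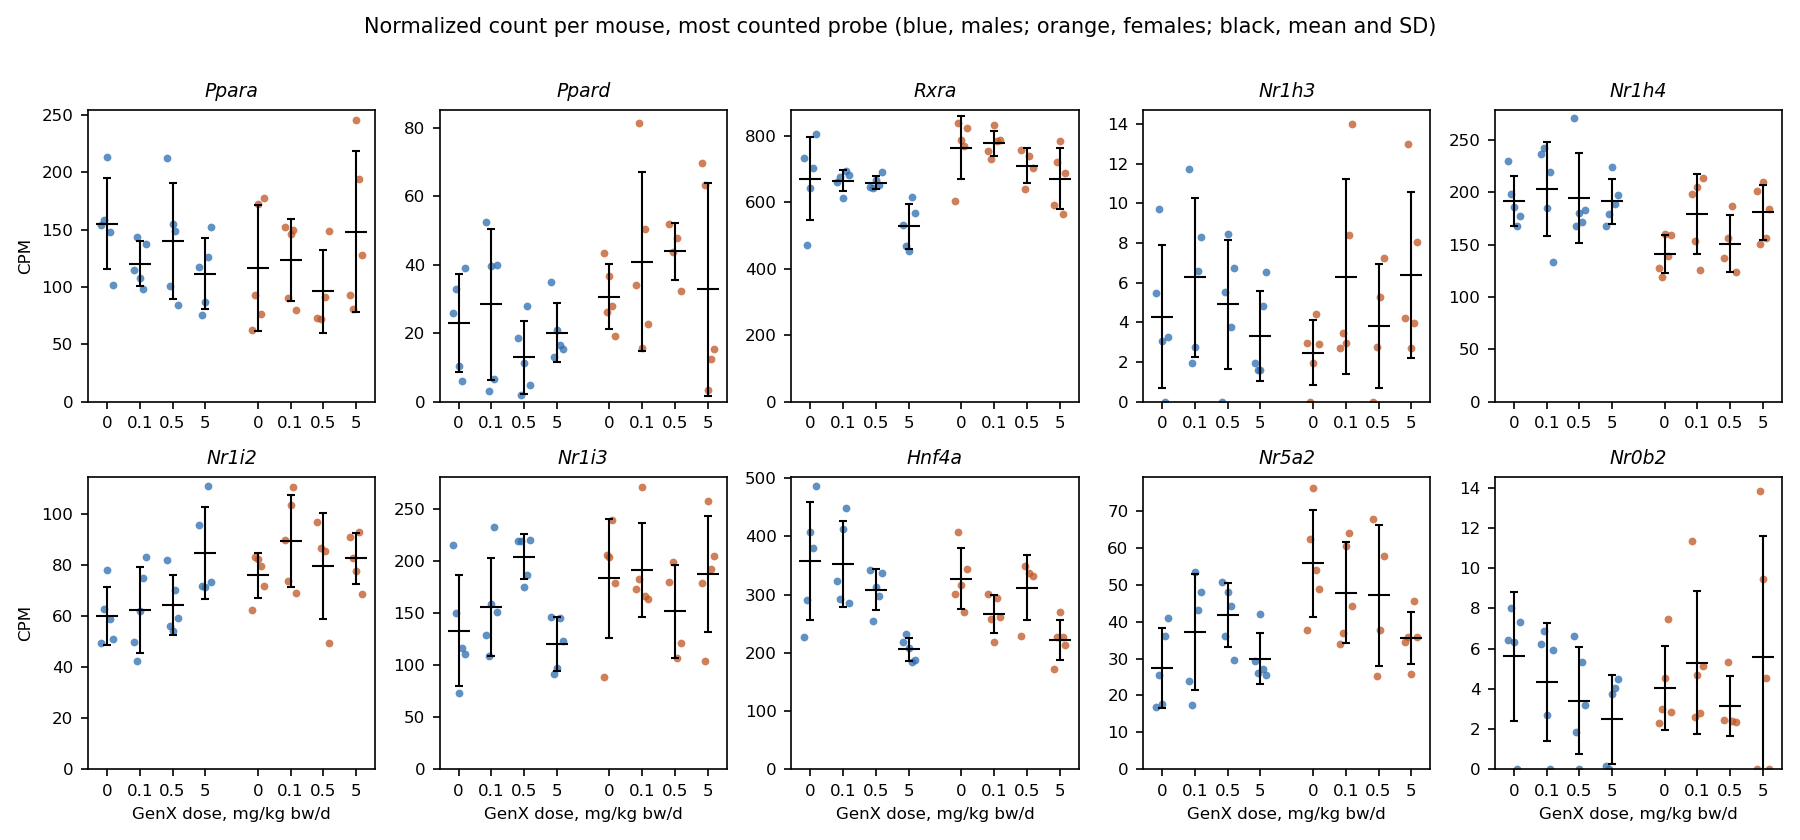
Level of each receptor in each mouse in CPM, by GenX dose in mg/kg bw/d; each point is 1 mouse, blue for males and orange for females, and black bars are the group mean with its SD. Hnf4a ends at 184 to 232 CPM in males and 173 to 269 CPM in females at 5 mg/kg, while the points of Ppara overlap between doses and those of Ppard are spread over most of their range within groups.

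Of 20 listed targets of Hnf4a, 1 rose and 11 fell in males at 5 mg/kg (median -0.68), where 3.75% of all genes fell, and 1 rose and 8 fell in females (median -0.36), where 2% fell. At 0.5 mg/kg, a dose at which Hnf4a itself did not pass, 1 rose and 5 fell in males, where 0.733% of all genes fell. Of the 20, 4 (Ttr, Tat, Serpina1a and Cyp2e1) are also among the 8 hepatocyte markers. The gene that rose in both sexes was Mttp, which loads lipid onto apolipoprotein B (0.49 ± 0.13 and 0.46 ± 0.13). In males, Hsd3b5, a male-type steroid dehydrogenase, went from 6.47 CPM to no read in any treated mouse, at least 31.3-fold lower, and the clotting factor gene F7 fell from 65.0 to 18.2 CPM (-1.84 ± 0.24). In females, the protease inhibitor gene Serpina1a fell from 464 to 110 CPM (-2.08 ± 0.21) and the glucuronosyltransferase gene Ugt2b1 from 29.6 to 10.7 CPM (-1.46 ± 0.39). Serpina1a fell in males as well, from 404 to 129 CPM (-1.65 ± 0.20).

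Nr5a2, a receptor that supports bile acid and cholesterol genes, lies at chr1:136842571-136960448 on the minus strand. It passed only between the sexes of untreated mice, at 16.8, 25.5, 17.6, 36.2 and 40.9 CPM in control males and 37.7, 62.6, 76.3, 54.1 and 48.8 CPM in control females. Only the lowest female lay below the highest male, and the difference was 1.03 ± 0.29 (adjusted p = 0.0413 by edgeR). The second probe went the other way, from 31.6 CPM in males to 20.1 CPM in females (-0.65, adjusted p = 0.352), so the sex difference is that of 1 probe. The log2 ratio of the 2 probes was higher in females by 1.79 (two-sided exact permutation p = 0.0159, adjusted over the 12 ratio comparisons to 0.0952), and the 2 probes had an r of 0.103 across mice. At 5 mg/kg they also differed in sign within each sex, at 0.13 and -0.94 in males (adjusted p of 1 and 0.128) and -0.65 and 0.42 in females (adjusted p = 0.258 and 0.835). The control sex call was lost without control male 101 or 103 or control female 153. Of 8 tested targets, 1 rose and 3 fell in males (median -0.71) and 3 fell in females (median -0.15), where 3.75% and 2% of all genes fell. They included Plin5, a lipid droplet protein that rose in males (1.13 ± 0.29). Gnmt, a methyltransferase, fell in both males and females (-1.66 ± 0.18 and -0.64 ± 0.17), as did Scarb1, the HDL receptor (-1.29 ± 0.26 and -0.90 ± 0.26).

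**Figure D3:**
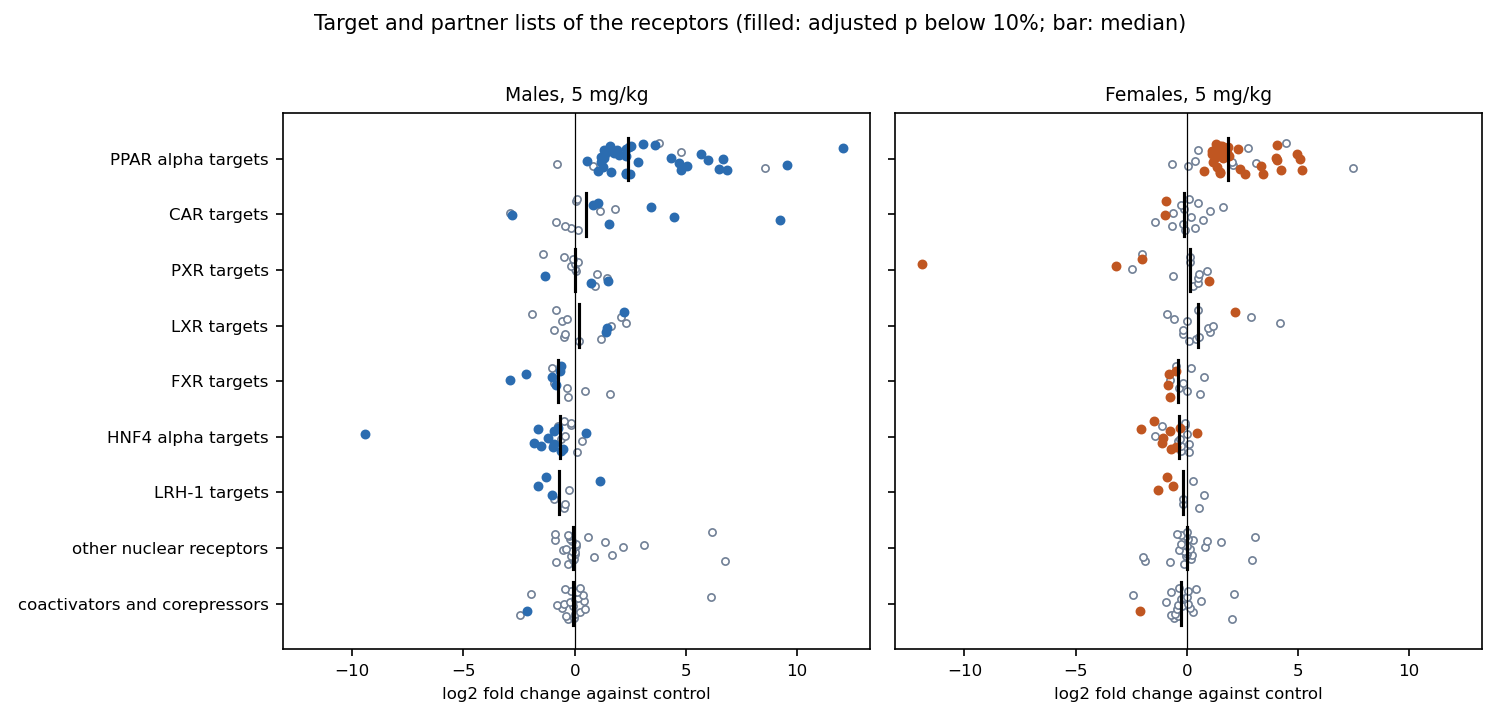
Change of every tested gene of the target and partner lists at 5 mg/kg against control, on the log2 scale, in males and females; filled points have an adjusted p below 10%, and bars are list medians. The PPARα targets have medians of 2.38 and 1.85 and no called gene to the left of 0, the HNF4α targets have medians of -0.68 and -0.36 with 1 called gene to the right of 0 in each sex, and the other nuclear receptors are centred on -0.07 and 0.00.

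The target lists share genes: Cyp7a1 is on the lists of Nr1h3, Nr1h4 and Nr5a2, Abcg5 and Abcg8 on those of Nr1h3 and Nr5a2, and Cyp8b1 on those of Nr1h4 and Nr5a2. Lists of genes whose proteins are relatives or partners of the receptors were read in the same way. Of 34 other nuclear receptor genes, 26 were tested and none was called at 5 mg/kg in either sex, where 9.35% and 4.09% of all genes were, which does not show that they were unchanged. Of 23 coactivators and corepressors, 1 was called in each sex, the phosphatidate phosphatase and PPAR coactivator gene Lpin1, which fell by 2.16 ± 0.54 on the log2 scale in males and by 2.09 ± 0.54 in females, with adjusted p of 0.00588 and 0.0163. Its controls varied widely in both sexes, at 498 CPM ± 557 in males and 764 CPM ± 531 in females (SD, n = 5 each). At 0.1 mg/kg no gene of any target or partner list was called in either sex.

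Counted over the 10 receptors with edgeR at an adjusted p below 10%, 2 were called in males at 5 mg/kg, where 9.35% of all genes were, and 1 in females, where 4.09% were. At an unadjusted p under 0.05 these counts were 3 and 3. The median receptor moved by -0.27 in males and 0.11 in females, where the median gene moved by 0.11 and -0.01. By groups that do not overlap, the counts were 0 in males, against 9.31% of all genes, and 1 (Hnf4a) in females, against 3.71%. At 0.5 mg/kg no receptor was called in males (2.61% of genes) or females (0.201%), with 2 and 0 at an unadjusted p under 0.05. At 0.1 mg/kg none was called in males (0.0403%) or females (0%), with 0 and 1 at an unadjusted p under 0.05. Of the 24 probes, 5 were called in males at 5 mg/kg (8.28% of all probes), 1 in females (3.66%) and 1 in males at 0.5 mg/kg (2.38%).

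**Figure D4:**
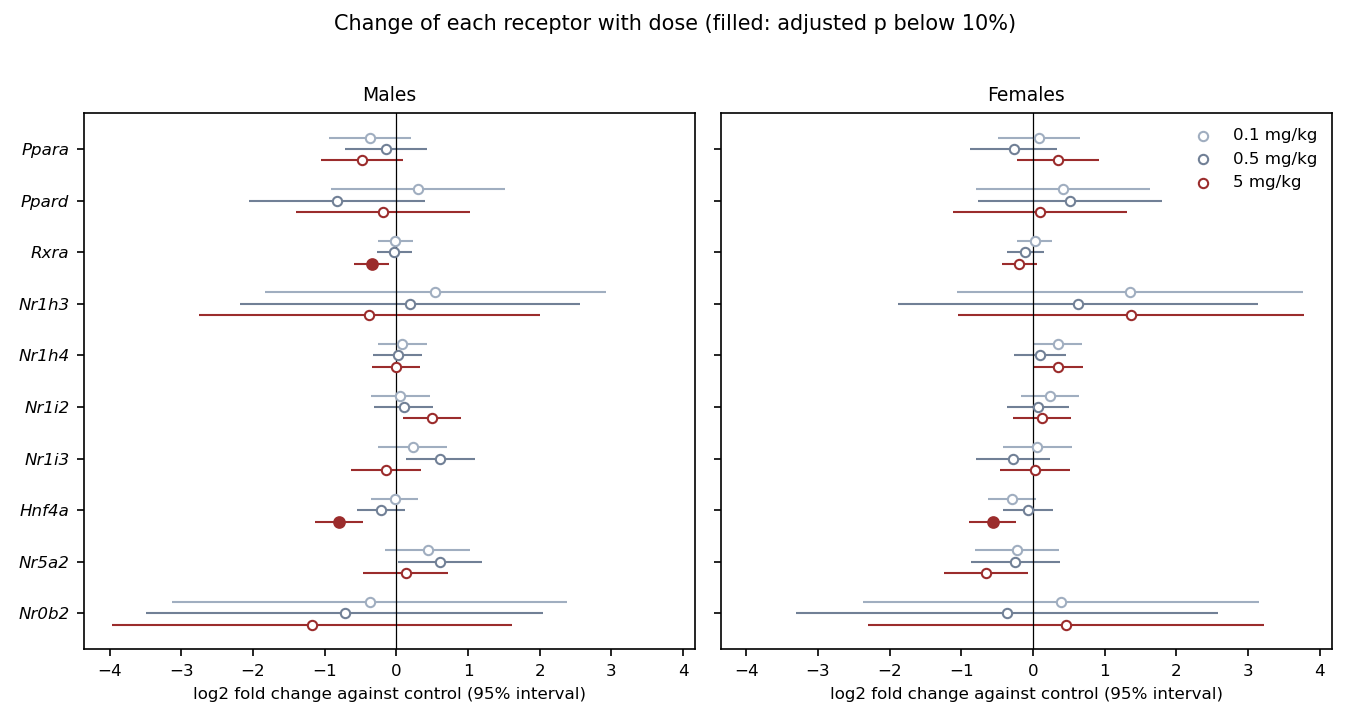
Log2 fold change of each receptor against controls of the same sex at 0.1, 0.5 and 5 mg/kg, with 95% intervals; filled points have an adjusted p below 10%. The filled points are Hnf4a (-0.80) and Rxra (-0.35) in males and Hnf4a (-0.56) in females, all at 5 mg/kg, and the intervals of Nr1h3 and Nr0b2 are the widest.

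With the doses taken in order, 2 receptors had a trend in males, Hnf4a and Rxra (-0.11 per dose step, adjusted p = 0.0884), against 11.9% of all genes, and 5 of 24 probes did, against 10.7% of all probes. None had one in females, against 4.32% of genes. Between control females and control males 1 receptor was called (Nr5a2), against 3.89% of genes, and 2 probes, against 3.49% of probes, the other being the second Nr1i3 probe, which was higher in females (0.88 ± 0.22, adjusted p = 0.0173). No receptor differed between the sexes in its change at any of the 3 doses by edgeR, where 0%, 0.322% and 1.19% of genes did at 0.1, 0.5 and 5 mg/kg. At an unadjusted p under 0.05 the counts were 0, 2 and 1, the 2 being Nr1i3 (-0.89, adjusted p = 0.277) and Nr5a2 (-0.85, adjusted p = 0.456). The changes at the 3 doses share the control mice of a sex, and so are not independent of each other.

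**Figure D5:**
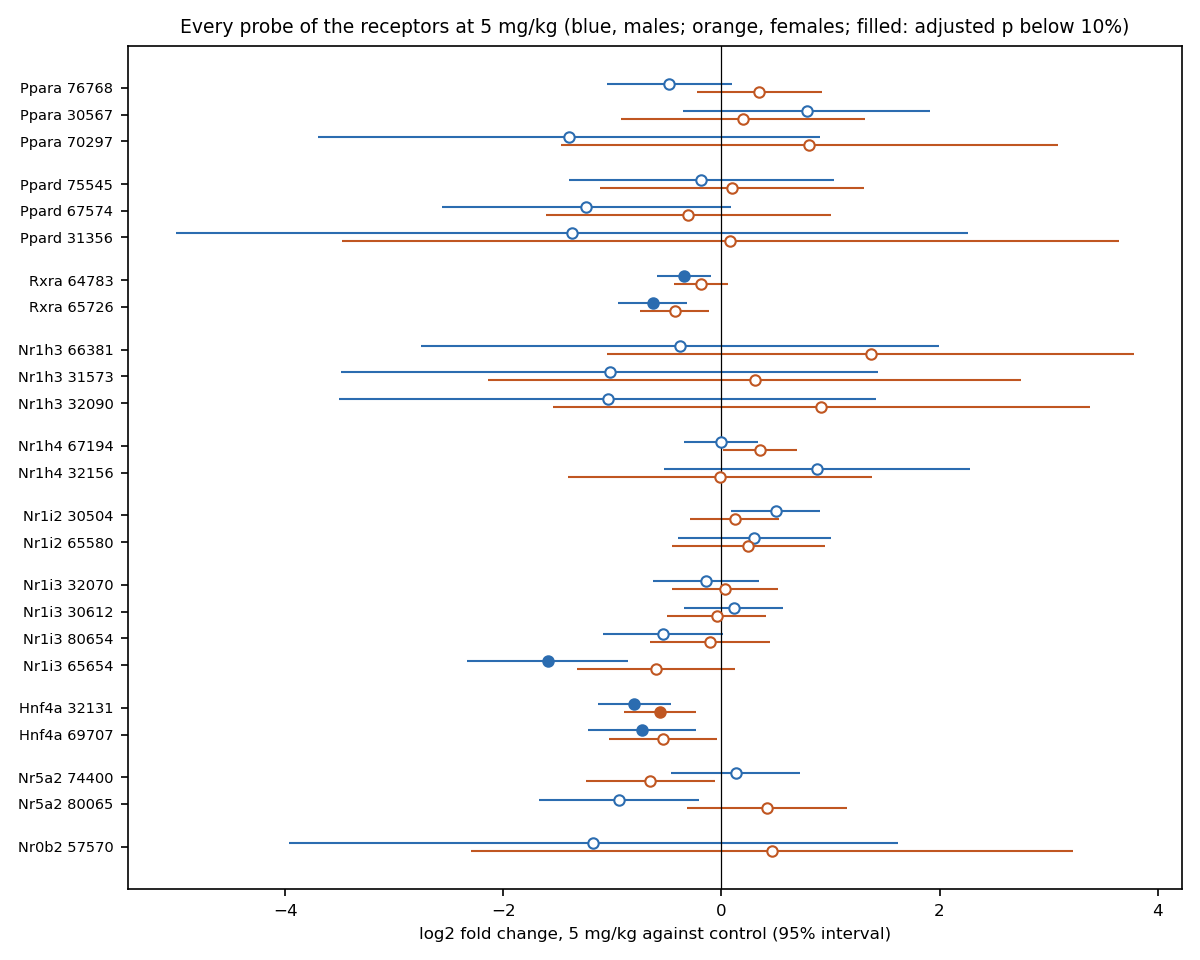
Log2 fold change at 5 mg/kg against control with its 95% interval for each of the 24 probes, blue for males and orange for females; filled points have an adjusted p below 10%. Both probes of Rxra and of Hnf4a lie left of 0 in both sexes, while the 4 probes of Nr1i3 in males run from -1.59 to 0.11 and the 2 probes of Nr5a2 take opposite signs within each sex.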

How the data were processed

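RNA from fixed liver sections of 40 mice was profiled by TempO-Seq. The authors deposited raw counts per probe and library, and the submitters' processing notes name bcl2fastq 2.17.1.14, Bowtie and mm10 without their settings. No normalization had been applied to the deposited counts. The library of female 355 was left out by the depth criterion of the study (total under the mean minus 2 SD). Counts were filtered with filterByExpr and scaled by TMM, and 39 libraries of 8 groups were fitted in 1 model with edgeR 4.0.16 (quasi-likelihood F-test, R 4.3.3). Benjamini-Hochberg adjustment ran over 17877 tested probes, and a probe was called at an adjusted p below 10%, the level used in the study. Shares of all genes are over the 12412 genes whose most counted probe was tested. Intervals are 95% intervals of the fit. Contrasts were each dose against controls of the same sex, the difference between the sexes at each dose, a trend linear in the rank of the dose, and control females against control males.

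Members and lists were chosen with earlier results of these data known. All 10 receptors are named. Of each target or partner list, up to the 2 largest rises and 2 largest falls among genes called at 5 mg/kg are named per sex (1 is not reported here), and for each receptor the 3 genes with the highest Pearson correlation of log2 CPM (prior count 2, sex means removed) among genes with a mean of at least 20 CPM. Dbp was chosen after its values were seen. The lists were targets of PPARα, CAR, PXR, LXR, FXR, HNF4α and LRH-1, other nuclear receptors, coactivators and corepressors, and markers of hepatocytes, macrophages, stellate, endothelial, bile duct and proliferating cells, lymphocytes and sex. Ratios of probes and correlations of probe pairs (log2 of CPM + 1, 100000 permutations) were tested with permutation tests. Gene positions are from GENCODE vM21 and promoter windows from RefSeq, both on GRCm38. The alternatives were DESeq2 1.42.0, its size factors in edgeR, each other probe of a receptor, all 40 libraries, no filter on low counts, probes summed per gene, reads divided by the first peak of low counts, only the groups compared, and each mouse left out in turn. Data were simulated for males at 5 mg/kg with 200 changed probes, all with a mean of at least 20 CPM. There edgeR recovered 42% of 2-fold and 94% of 4-fold changes over 16584 probes, with 9.3% false among its calls. DESeq2 recovered 55% and 98% over 17877 probes, with 73.7% false among its calls, and 12.6% among probes of at least 20 CPM. A false share depends on the number of changed probes. In the real comparison edgeR called 1480 probes, so these shares do not carry over to it.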

Additional observations from a re-analysis of the deposited data

Results flagged for a closer look

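Of the 80 sets of values (10 receptors in 8 groups), 7 had 1 mouse far from the others of its group, by Dixon's gap test for groups of 4 or 5. Chance flags about 1 in 20 sets, and the sets were not adjusted for their number. None is weighed here.

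Hnf4a was at 229 CPM in female 351 (0.5 mg/kg), below the 332 to 349 CPM of the other 3 mice. Rxra was at 603 CPM in control female 151, with the others at 770 to 837 CPM, and this low control lies in the comparison that did not pass in females. Nr1h4 was at 271 CPM in male 301 (0.5 mg/kg), above the 168 to 183 CPM of the others, and Nr1i3 was at 271 CPM in female 253 (0.1 mg/kg), above 163 to 183 CPM. Nr5a2 was at 42.2 CPM in male 403 (5 mg/kg), above 25.4 to 29.3 CPM. Nr0b2 was at 0 CPM in control male 104, where the others had 6.32 to 8.01 CPM, and at 5.36 CPM in female 352 (0.5 mg/kg), where the others had 2.33 to 2.45 CPM, both within a few molecules.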

How the results depend on the processing

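Of 552 counts of receptors called, 519 stayed within 1.5 times the main count, and of 5664 log2 differences 28 lost a call and 14 gained one. The sign changed in 93 of 4680 values with 1 mouse left out, 26 of 816 under other processing and 57 of 168 on another probe of the receptor, and 1 of these differences had been called. In males at 5 mg/kg the count of receptors was 1 rather than 2 with no filter, with all 40 libraries and with only the groups compared, where Rxra was lost (adjusted p = 0.155, 0.233 and 0.181), and the trend in males was likewise 1. In females at 5 mg/kg it was 0 with all 40 libraries. The trend in females was 1 with DESeq2, with probes summed and with reads divided by the first peak. Between the control sexes the count was 2 with DESeq2 and with reads divided by the first peak, and 0 with all 40 libraries and with probes summed. Nr5a2 between the control sexes was -0.65 on its second probe. Leaving out 1 mouse gave 0 to 1 in males at 0.5 mg/kg, 1 to 3 in males at 5 mg/kg, 0 to 1 in females at 5 mg/kg, 1 to 3 for the trend in males, 0 to 1 for the trend in females and 0 to 1 between the control sexes. The cause was not tested. No paired analysis was possible because the animal numbers in the labels differ between groups. Depth limits Nr1h3 and Nr0b2 most.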

Other observations

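For each receptor, the 3 genes with the most similar pattern over the 39 libraries are given as a description. The mice share 8 dose and sex groups, so these r values include the response to dose, and genes at least at 20 CPM on average were searched. Hnf4a was most like Slc39a14 (r = 0.73), a zinc transporter, Crp (0.72), the C-reactive protein gene, and Mup3 (0.72), a major urinary protein gene of a family of near-identical copies. Rxra was most like Sdc4 (0.74), Dgat2 (0.72), which makes triglycerides, and Arg1 (0.71), the urea cycle arginase. Nr1i3 was most like Glul (0.62), the glutamine synthetase of hepatocytes around the central vein, Sirt3 (0.62) and Cyp2e1 (0.60), another gene of the central zone. Ppara was most like Dyrk2 (0.65), Slc25a47 (0.63) and Mia3 (0.61), and Ppard was most like Leap2 (0.61), Acly (0.60) and Tbc1d14 (0.60).

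Nr5a2 was most like Tle1 (0.68), Pdcd6 (0.64) and Lrg1 (0.55), and Nr1i2 was most like Eif4a2 (0.61), Gbe1 (0.57) and Nipsnap3b (0.56). Nr1h4 had the lowest values of the 10, with Rpl13-ps3 (0.48), Gys2 (0.48) and Luc7l2 (0.45). For Nr1h3 these genes were Dlc1 (0.53), Dcaf11 (0.51) and Mrps2 (0.50), and for Nr0b2 they were Ufl1 (0.62), Pfn1 (0.50) and Ivd (0.50), from very few molecules. Among the 45 pairs of receptors, r was highest for Rxra and Hnf4a (0.49) and lowest for Nr1h4 and Nr5a2 (-0.37).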
